A study of Mus musculus with 6 samples.

Results

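The enzymes described here are the transferases that couple glutathione, glucuronic acid or sulfate to other molecules: the soluble glutathione S-transferases (Gst), the membrane-bound microsomal ones (Mgst), the UDP-glucuronosyltransferases (Ugt) and the sulfotransferases (Sult). Members were found by gene symbol, from the soluble Gst classes a, k, m, o, p, t and z, the numbered Mgst genes, Ugt1a, Ugt2a, Ugt2b and Ugt3a, and the numbered Sult genes. The rule itself uses no measured value. The rule found 63 features of the 26535 in the table, with 22 Gst, 2 Mgst, 21 Ugt and 18 Sult features. Of these, 50 stand for 1 gene symbol and 13 are joint features, whose tags matched several members equally well, and together they name 53 symbols. A further 8 rows were left out because they also name a gene that is no member.

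Mice lacking Atxn2, which encodes the RNA-binding protein ataxin-2, were compared with wild-type mice to find expression changes shared by tissues. All animals were C57BL/6 and 6 months old by the sample labels. The 6 libraries are the homozygous knockout (Atxn2-KO) and the wild type in cerebellum, hippocampus and liver, each made from 1 pool of 3 animals. RNA was read by MACE, massive analysis of cDNA ends, in which each transcript gives a tag near its 3′ end, so levels of different genes can be compared without dividing by length. The labels' protocol text names midbrain and ages in weeks where the sample labels give hippocampus and months, and the sample labels were followed. Which part of Atxn2 is deleted is not given in the labels. Animals were pooled, so the spread between mice cannot be seen. Each genotype has a single library in each tissue, so a difference between genotypes within 1 tissue has no replicate check and no p-value.

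Conjugation makes reactive or fat-soluble compounds water-soluble so that they can be exported in bile or urine. Glutathione S-transferases join glutathione to electrophiles and to products of lipid peroxidation, UDP-glucuronosyltransferases use UDP-glucuronic acid on bilirubin, steroids and drugs, and sulfotransferases use the sulfate donor PAPS on steroids, bile acids, phenols and amines. The liver is the main site, and several of these genes differ between male and female mice through the pattern of growth hormone, whose signal runs through the transcription factor Stat5.

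The libraries held 1774523 to 2727523 sense tags on genes, the fewest in knockout liver and the most in wild-type liver. Atxn2 itself, on chromosome 5 from 121711609 to 121814950 (RefSeq, GRCm38.p6), had 0 knockout tags against 167 wild-type tags in cerebellum, 1 against 194 in hippocampus, and 2 against 115 in liver. The genotypes also differed in a marker of sex. Xist, the RNA that silences an X chromosome in female cells, had 0 tags in all 3 knockout libraries. The wild-type libraries had 34 (cerebellum), 49 (hippocampus) and 87 (liver). Y-linked tags were present in all 6 libraries. Ddx3y was at 54.7 (knockout) and 53.1 (wild type) CPM, a library-scaled level, in cerebellum, 51.3 and 40.1 in hippocampus, with 87.0 and 64.9 in liver, and each interval of its ratio held 0. Eif2s3y, also Y-linked, was higher in the knockout in all 3 tissues, by 0.57, 0.76 and 1.07 on the log2 scale, with counting intervals above 0. The sex of the animals is not given in the labels, and the sex makeup of the pools and the genotype cannot be told apart in any result below.

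Liver carried far more of these transcripts than brain. Members made up 1.44% of all gene tags in knockout liver (95% exact binomial interval 1.42% to 1.455%) and 1.29% in wild-type liver (1.28% to 1.31%), against 0.122% and 0.131% in cerebellum and 0.130% and 0.151% in hippocampus. Such intervals, Clopper-Pearson here and below, cover counting error only. In wild-type liver the soluble Gst took 0.676% of gene tags, the Ugt 0.301%, the Mgst 0.230% and the Sult 0.0842%. In wild-type cerebellum the same families took 0.0993%, 0.00254%, 0.0155% and 0.0139%, so that the Ugt family, next to the soluble Gst in liver, was the smallest in cerebellum.

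**Figure D1:**
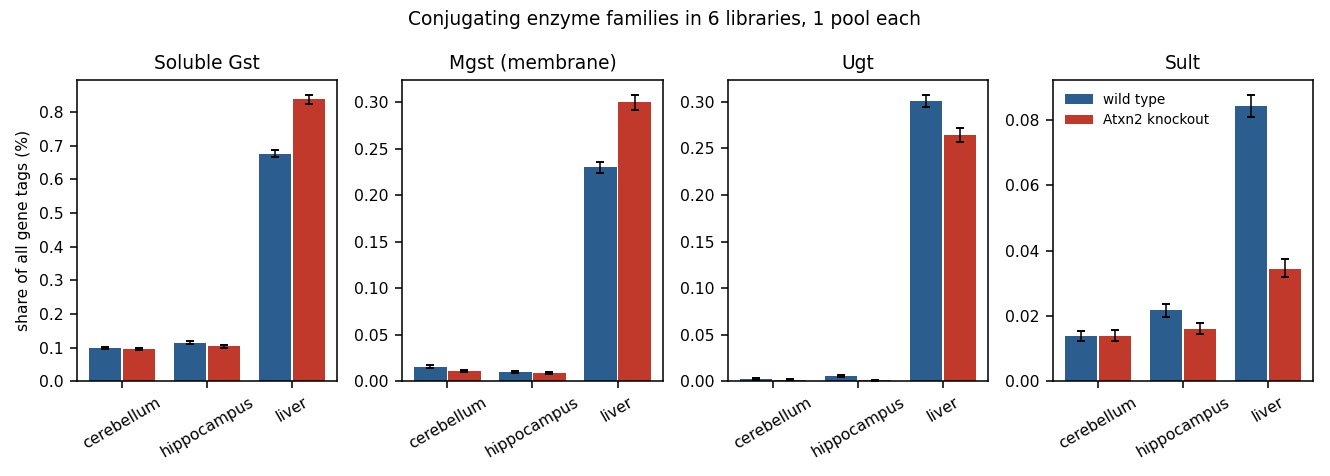
Share of all gene tags (percent, y axis, one scale per panel) taken by each enzyme family in the 6 libraries, with 95% exact binomial intervals as error bars. The liver bars are the tallest in every panel, and in liver the knockout lies above the wild type for soluble Gst (0.838% and 0.676%) and below it for Sult (0.0345% and 0.0842%).

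Levels are given as CPM, tag counts brought to a common library size after TMM scaling, which corrects each library total for a few very abundant transcripts. A level of 10 CPM was reached in at least 1 library by 42 members. The other 21 stayed below it everywhere, with a highest level of 8.35 CPM, and 18 of them were highest in liver. Among those 21, Gstp1 and Sult2a2 had no sense tag of their own in any library, and each also stands in rows shared with a close copy.

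Liver and brain were compared with edgeR's quasi-likelihood test over all features, with both genotypes as samples of a tissue. Of 37 members with enough tags to be tested, 33 were higher in liver and 4 were lower at an adjusted p of 0.05. Over all 13118 features tested, 33.9% were higher and 36.3% were lower in liver. A feature was tested when a single tissue had enough tags, so one seen only in liver could only be called higher there. Sult1c2 and Ugt2b38, for example, had no brain tag, so the filter fixed part of the members' split. The 33 span all families, from Gsta4, which conjugates the lipid aldehyde hydroxynonenal (log2 difference 1.86, SE 0.16, Benjamini-Hochberg adjusted p = 2.3e-10), to Sult1d1, an amine sulfotransferase (9.14, SE 0.32, adjusted p = 1.2e-17). The 12 Ugt features tested differed by 7.67 to 9.13 on the log2 scale. Several had few or no brain tags, so these sizes are rough. Ugt2b38 and Ugt2b38/Ugt2b5 had none (SE 0.83 and 0.86), and their values depend on how the fit treats a count of 0. Fewer cells of a type and less RNA per cell cannot be told apart in such tissue libraries. With library totals in place of TMM scaling the members' log2 differences were lower by a median of 1.24, and their split stayed at 33 higher and 4 lower, while that of all 13118 features became 2189 higher and 8714 lower.

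The 4 members with lower levels in liver were Gstm5, Mgst3, Sult2b1 and Sult4a1. Sult4a1, a sulfotransferase of neurons with no settled substrate, had 258 (knockout) and 272 (wild type) tags in cerebellum, 284 and 364 in hippocampus, with 2 and 10 in liver. Both liver values lay below all 4 brain values, and the log2 difference was -4.39 (SE 0.31, edgeR adjusted p = 7.8e-12). Sult4a1 alone held 82.7% of the Sult tags of wild-type cerebellum (78.1% to 86.6%) and 78.45% of those of wild-type hippocampus, but 0.435% of those of wild-type liver.

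Sult2b1, which sulfates cholesterol and related sterols, had 22 and 28 tags in cerebellum, 58 and 46 in hippocampus, but 0 and 1 in liver (log2 difference -4.75, SE 0.76, edgeR adjusted p = 7.0e-06). Gstm5, a mu class enzyme of brain and testis, had 127 and 100, 269 and 191, and 5 and 21 tags (-2.35, SE 0.29, edgeR adjusted p = 1.5e-07). In both genes no liver value reached any brain value. That was not so for Mgst3, which stood at 31.5 CPM in wild-type hippocampus and at 31.2 and 32.8 in knockout and wild-type liver. For Mgst3, a microsomal enzyme with glutathione peroxidase activity, the difference was small (-0.86, SE 0.24, edgeR adjusted p = 0.0029), and it missed the threshold without the wild-type cerebellum library (-0.63, adjusted p = 0.054).

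The leading Mgst and Sult members differed between tissues, while the leading soluble Gst did not. Mgst1, the microsomal transferase of liver endoplasmic reticulum and outer mitochondrial membrane, held 99.2% of the Mgst tags in wild-type liver (98.9% to 99.4%) and 27.25% of those in wild-type cerebellum, where Mgst3 held the other 72.75%. In wild-type hippocampus Mgst1 held 58.5% and in knockout hippocampus 20.7%. Among the soluble enzymes Gstm1 led in every library, with 69.4% of the soluble Gst tags in wild-type cerebellum, 62.2% in wild-type hippocampus and 47.15% in wild-type liver. These shares leave out the rows that Gstp1 and Gstp2 share with the predicted gene Gm3934, which held 590 wild-type tags in cerebellum, 644 in hippocampus and 5600 in liver, more than any member but Gstm1 and, in liver, Mgst1. Of the members counted, the next in liver was Gsta3, an alpha class enzyme active on aflatoxin epoxide, with 26.45% in wild type, and it held 1.49% in wild-type cerebellum. In brain the next of those counted were Gsta4, with 10.8% in wild-type cerebellum, and Gstm5, with 4.27% there and 7.83% in wild-type hippocampus.

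**Figure D2:**
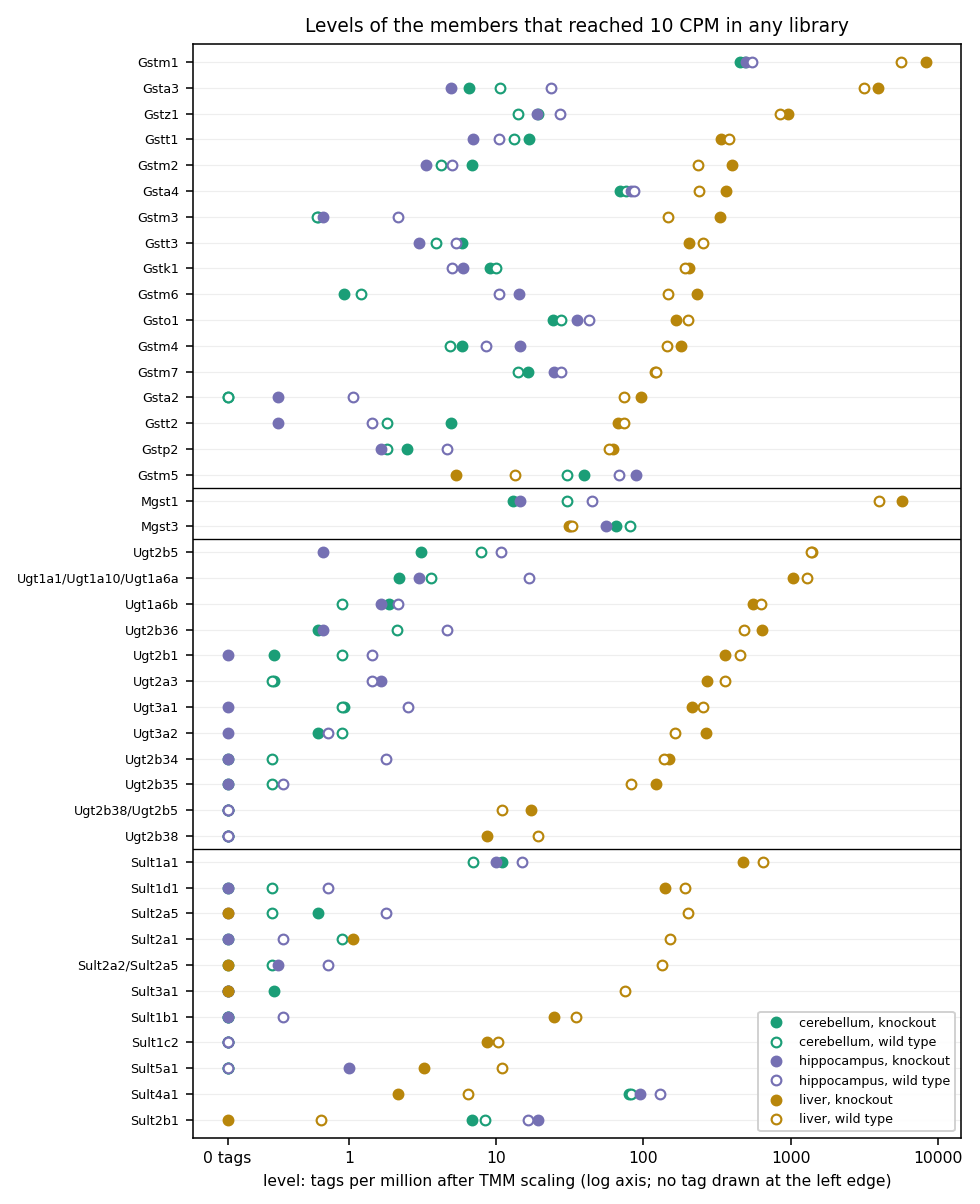
Level of each of the 42 members that reached 10 CPM in any library, as CPM on a log axis; colour gives the tissue, filled points the knockout and open points the wild type, and members without a tag stand at the left edge. The liver points lie to the right of the brain points except for Gstm5, Mgst3, Sult2b1 and Sult4a1, and the filled liver points of Sult2a5, Sult2a2/Sult2a5 and Sult3a1 stand at 0 tags.

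Between the brain regions, 3 of the same 37 members were higher in cerebellum and 7 were lower by edgeR, beside 13.4% and 15.7% of all features. Some of the 37, such as Sult1c2 and Ugt2b38, had no tag in either region and could not be called. Gstt1 and Gstt2 of the theta class were higher in cerebellum, by 0.79 (SE 0.29, edgeR adjusted p = 0.042) and 1.90 (SE 0.70, edgeR adjusted p = 0.045). So was Mgst3, by 0.74 (SE 0.21, edgeR adjusted p = 0.0097). The 7 higher in hippocampus included 4 of the mu class. Gstm6 had 3 (knockout) and 4 (wild type) tags in cerebellum against 43 and 29 in hippocampus, a log2 difference of -3.46 (SE 0.43, edgeR adjusted p = 9.7e-07). Gstm5, Gstm4 and Gstm7 differed by -1.18, -1.11 and -0.78. The others were Gsto1, an omega class thiol transferase (-0.60), Sult2b1 (-1.23) and the joint Ugt1a feature (-1.69).

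This regional split depended on the method. It was 1 higher and 8 lower with DESeq2's size factors, 4 and 6 with library totals, and 0 and 2 by the DESeq2 test; without the knockout or the wild-type cerebellum library 3 and 6 members were called.

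Genotype was tested over the 3 tissues with tissue as a block. The tissues may come from the same animals, so this test measures agreement between tissues and not between animals. None of the 23 members tested was called by edgeR, beside 0.0952% of the 11557 features, and DESeq2 called none. At an unadjusted p below 0.05 edgeR had 4 members: Gstm6 with a log2 difference of 0.58 (SE 0.19), Gstm2 with 0.61 (SE 0.21), Gstm4 with 0.41 (SE 0.19) and the joint Ugt1a feature with -0.79 (SE 0.29). Their adjusted p-values were 0.89, 0.90, 0.999 and 0.93. The test leaves out transcripts found in liver alone. With every feature of at least 1 tag kept, 61 members were tested, Gstm3 was called higher, and Sult2a1, Sult2a5, Sult2a2/Sult2a5 and Sult3a1 lower, beside 26 higher and 80 lower of 24654 features. All 5 had few or no tags in brain, so these calls rest on liver.

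In the liver the sulfotransferases of the Sult2a and Sult3 groups were nearly absent from the knockout, 5 of the 6 mu class transferases measured had an interval above 0, and the Ugt members went both ways. Within a tissue the genotypes were compared by the log2 ratio of knockout over wild type with its 95% counting interval. A member was counted as past the size rule when this ratio was at least 1 in either direction, its mean level at least 10 CPM, and the interval excluded 0. In liver 37 members had a mean of at least 10 CPM. The size rule took 1 of them as higher, Gstm3, beside 1.56% of all 8353 features. It took 5 as lower, Sult2a1, Sult2a5, Sult2a2/Sult2a5, Sult3a1 and Ugt2b38, beside 3.4%. Counting intervals alone lay above 0 for 12 members and below 0 for 12, beside 12.5% and 10.1% of all features. That split was 14 and 9 with DESeq2's size factors and 10 and 14 with library totals. These scalings moved every liver ratio by 0.11 and -0.12. A counting interval narrows as tags rise, so the shares of members and of all features also depend on their levels, here and in brain. The median log2 ratio of the 37 was -0.03, and that of all features -0.01.

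**Figure D3:**
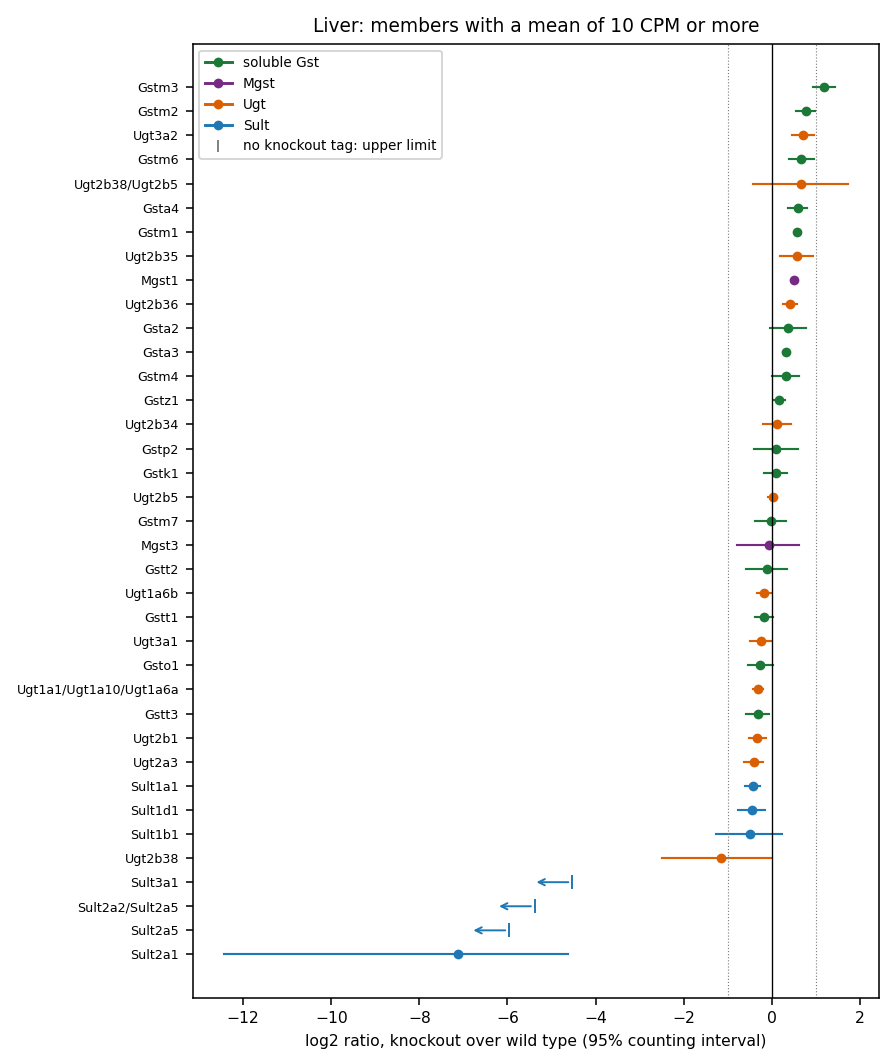
Log2 ratio of knockout over wild type in liver (x axis) for the 37 members with a mean of at least 10 CPM, with 95% counting intervals and colours by family; bars with an arrow mark upper limits for members with no knockout tag. The Sult2a and Sult3 features lie at or beyond -4.53, Gstm3 at 1.18 is the highest, and most other members lie between the dotted lines at -1 and 1.

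Sult2a enzymes sulfate steroids and bile acids, and their genes form a cluster on chromosome 7 from 13623967 to 14123048. Sult2a5 had 0 tags in knockout and 313 in wild-type liver, 62.4-fold lower with the 0 set to a floor of 3 tags. The counting interval of its log2 ratio had an upper limit of -5.66. The joint feature Sult2a2/Sult2a5 had 0 and 209 tags, 41.6-fold lower with the same floor, and an upper limit of -5.07. Sult2a1 had 1 and 234 tags, a log2 ratio of -7.13 with a counting interval of -12.44 to -4.64. All Sult2a features together had 1 tag in knockout and 780 in wild-type liver, so their share of Sult tags was 33.96% in wild type (32.0% to 35.9%) and 0.163% in knockout (0.00414% to 0.907%).

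Part of these tags cannot be given to 1 gene. The last 300 bases of the Sult2a2 and Sult2a5 transcripts share an exact run of 216 bases, and those of Sult2a1 and Sult2a5 a run of 72. Of the 780 wild-type tags 232 stood in joint rows. In brain the Sult2a features had 2 and 5 tags in cerebellum and 1 and 8 in hippocampus.

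Sult3a1, an amine sulfotransferase on chromosome 10 from 33851020 to 33879475, had 0 tags in knockout and 116 in wild-type liver. With the 0 set to 3 tags it was 23.1-fold lower, and the upper limit of its log2 interval was -4.21. Away from the Sult2a and Sult3 groups the family was closer between genotypes. Sult1a1, the main phenol sulfotransferase of liver, had 443 and 1002 tags (log2 ratio -0.44, -0.60 to -0.27), and Sult1d1 had 130 and 299 (-0.46, -0.77 to -0.16). Sult1b1, which sulfates thyroid hormone, had 23 and 54 (-0.49), with an interval that held 0. In all, 6 of the 7 Sult members measured in liver had an interval below 0 and none above, beside 10.1% and 12.5% of all features. Sult2a5 and Sult2a2/Sult2a5, among those below, name an overlapping gene. The summed family ratio was -1.17 (-1.30 to -1.04), and -0.46 (-0.59 to -0.32) without the Sult2a and Sult3 groups. Papss2, which makes the sulfate donor PAPS, was lower too, with 182 and 525 tags (-0.79, -1.04 to -0.54), and of the 5 measured genes of PAPS supply it alone had an interval off 0.

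Genes known for female-biased expression in mouse liver were lower in the knockout as well. Of 16 listed, none a member and Xist among them, 12 were measured in liver and all 12 were past the size rule as lower in knockout, with a median log2 ratio of -5.51. Their summed level was 176 CPM in knockout and 4755 CPM in wild type. Cyp2c40 had 3 and 643 tags, and Cyp2a4 2 and 580. Of 17 measured male-biased genes, 11 had an interval above 0 and 2 below, with a median of 0.54. Socs2, a Stat5 target, had 8 and 159 tags (-3.57, -4.81 to -2.56), and Bcl6, a repressor that binds many Stat5 sites, had 62 and 21 (2.30, 1.57 to 3.09). Whether Stat5 or Bcl6 took part in the Sult2a and Sult3a1 values was not tested. Xist had 0 tags in knockout and 87 in wild-type liver. The sex makeup of the pools and the genotype cannot be told apart in the Sult2a and Sult3a1 values.

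Promoter sequences of the members past the size rule in liver are printed from RefSeq on GRCm38.p6, as 250 bases before to 50 after the transcript start. Of the 53 member symbols 46 had an entry, 57 promoters in all; Sult2a1 and Sult2a2 had none. Searched on both strands were TTCNNNGAA (the core read by Stat5 and Bcl6), TGACNNNGC (the antioxidant response element read by Nrf2) and GCGTG (the core of the Ah receptor). Capitals mark a match. A match describes the letters and is no evidence of binding.

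The Sult2a5 window is chr7:13623717-13624016 (plus strand) and that of Sult3a1 chr10:33857472-33857771 (plus strand). The start used for Sult3a1 lies inside the span of the gene.
Sult2a5: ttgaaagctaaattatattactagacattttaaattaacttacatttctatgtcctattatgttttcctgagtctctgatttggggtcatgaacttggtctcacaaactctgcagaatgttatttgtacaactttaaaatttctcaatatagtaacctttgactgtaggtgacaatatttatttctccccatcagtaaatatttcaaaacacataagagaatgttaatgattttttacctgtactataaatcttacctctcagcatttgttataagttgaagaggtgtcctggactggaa
Sult3a1: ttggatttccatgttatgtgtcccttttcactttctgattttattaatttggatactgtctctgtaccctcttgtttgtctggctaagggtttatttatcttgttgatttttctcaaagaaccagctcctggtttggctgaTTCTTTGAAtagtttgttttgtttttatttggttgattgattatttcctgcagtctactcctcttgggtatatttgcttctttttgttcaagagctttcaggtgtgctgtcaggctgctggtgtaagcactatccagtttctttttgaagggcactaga
Sult3a1 holds the Stat5 and Bcl6 letters, and the Sult2a5 window holds none of the 3 motifs. Over all 32851 promoters listed, 8.3% held the Stat5 and Bcl6 letters, against 5 of the 57 member promoters, those of Gsta1, Gstm6, Mgst1, Sult3a1 and Ugt1a6a. The Ah receptor letters stood in 12 of the 57, against 32.4% of all promoters.

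The transferases of the mu class lie side by side on chromosome 3 from 107895854 to 108045179, in the order Gstm5, Gstm7, Gstm6, Gstm3, Gstm2, Gstm1, Gstm4. In knockout liver the genes in the middle of the row had the higher ratios. Gstm3 had 308 tags in knockout and 227 in wild-type liver, which after scaling is 331 and 146 CPM, 2.27-fold higher (log2 ratio 1.18, 0.93 to 1.44). Its neighbour Gstm2 had 371 and 364 tags (0.77, 0.56 to 0.98), and Gstm6 216 and 227 (0.67, 0.40 to 0.95). The raw tags are near equal because the knockout liver library is the smaller.

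Gstm1, the most abundant of all members, had 7754 and 8699 tags, or 8332 and 5588 CPM (0.58, 0.53 to 0.62). Gstm4, at the end of the row, had 167 and 225 (0.31, 0.01 to 0.61). At the other end Gstm7 had 111 and 189 (-0.03, -0.38 to 0.32) and Gstm5 5 and 21 (-1.33, -3.09 to 0.12), both with an interval that held 0. The summed Gstm ratio in liver was 0.59 (0.54 to 0.63), and any pair of these genes compared shared an exact run of 8 to 22 bases in the last 300 of their transcripts.

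In brain Gstm1 lay slightly below 0 and Gstm5 above. Gstm1 had 1456 and 1626 tags in cerebellum (-0.12, -0.22 to -0.01) and 1507 and 1517 in hippocampus (-0.12, -0.23 to -0.02). Gstm5 was higher in knockout hippocampus, 269 and 191 tags (0.38, 0.11 to 0.66), with 127 and 100 tags in cerebellum (0.39), where the interval just held 0. Gstm4 had 44 and 24 tags in hippocampus (0.76, 0.01 to 1.54), and Gstm3 had 6 tags or fewer in every brain library.

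The promoter of Gstm3, chr3:107969125-107969424 (minus strand), is shown because it is the 1 member past the size rule as higher.
Gstm3: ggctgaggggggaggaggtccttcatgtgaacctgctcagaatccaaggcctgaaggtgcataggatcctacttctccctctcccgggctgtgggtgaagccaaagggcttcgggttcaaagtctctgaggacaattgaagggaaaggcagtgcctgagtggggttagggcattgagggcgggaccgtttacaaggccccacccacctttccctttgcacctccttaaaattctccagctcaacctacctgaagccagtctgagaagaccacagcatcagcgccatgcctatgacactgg
It held none of the 3 motifs, and neither did that of Gstm2. Within this cluster the antioxidant response element letters stood in the promoters of Gstm5 and Gstm7, and over all promoters 12.4% held them, against 4 of the 57 member promoters, the others being those of Gsta3 and Mgst1. No match says only that these letters are not in this window.

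Among the other soluble transferases in liver, the alpha class Gsta3 had 3645 and 4881 tags (0.32, 0.26 to 0.38) and Gsta4 336 and 374 (0.59, 0.37 to 0.80). Gstz1, the zeta class enzyme that isomerises maleylacetoacetate in tyrosine breakdown, had 890 and 1321 (0.17, 0.05 to 0.30). Gstt3 of the theta class was lower, with 189 and 396 tags (-0.32, -0.58 to -0.07), and the 7 measured members whose interval held 0 were Gsta2, Gstk1, Gstm7, Gsto1, Gstp2, Gstt1 and Gstt2. With DESeq2's size factors the interval of Gstt3 held 0, and with library totals those of Gstm4 and Gstz1 did. Thus 8 of 16 soluble members had an interval above 0 and 1 below, beside 12.5% and 10.1% of all features. The summed ratio of the soluble members was 0.43 (0.40 to 0.46). For the membrane enzyme Mgst1 the tags were 5299 and 6227 (0.51, 0.46 to 0.56).

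Most tags of the pi class and of Gsta1 fall outside the rule. The rows shared by Gstp1, Gstp2 and the predicted gene Gm3934 had 4356 tags in knockout and 5600 in wild-type liver (0.38, 0.32 to 0.44), beside 58 and 91 for Gstp2 alone. Pi class transferases are abundant in male mouse liver. The row of Gsta1 and Gm3776 had 89 and 29 tags (2.36, 1.74 to 3.02), beside 3 and 1 for Gsta1 alone. The transcripts of Gsta1 and Gm3776 share an exact run of 186 bases in their last 300.

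Glutathione itself is made by other enzymes. Of 11 measured genes of glutathione supply in liver, 3 had an interval above 0 (Gclc, the catalytic subunit of the limiting ligase, with 356 and 454 tags and a ratio of 0.39; Gss, 0.48; Cbs, 0.37) and Ggct had one below (-0.75). Of 20 measured targets of Nrf2, the factor that answers electrophiles, 10 had an interval above 0 and 1 below, with a median of 0.18. Hmox1, heme oxygenase 1, had the highest ratio of these (50 and 32 tags, 1.39, 0.72 to 2.07), while Nqo1 had 10 and 15 tags (0.16, -1.16 to 1.41). Nfe2l2, which encodes Nrf2, had 49 and 73 (0.17, -0.39 to 0.71).

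The Ugt family was nearly level in sum in liver, 4695 and 8214 tags (-0.06, -0.12 to -0.01), and the sign of this sum turned to 0.04 with DESeq2's size factors. By subfamily the Ugt1a sum was lower (-0.27, -0.36 to -0.18), the Ugt3a sum higher (0.21, 0.03 to 0.38), and the Ugt2b sum had an interval that held 0 (0.07, -0.01 to 0.14). Of 12 measured, 3 had an interval above 0 and 5 below, beside 12.5% and 10.1% of all features. With DESeq2's size factors this became 4 above, with Ugt2b5 added, and 3 below, without Ugt1a6b and Ugt2b38. Above were Ugt3a2, which transfers sugars other than glucuronic acid (249 and 255 tags, 0.71, 0.45 to 0.97), Ugt2b35 (113 and 128, 0.56) and Ugt2b36 (593 and 750, 0.40). Ugt3a1, the neighbour of Ugt3a2 on chromosome 15, had 198 and 393 tags (-0.25), with an interval that just held 0.

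Below were the joint feature of Ugt1a1, Ugt1a10 and Ugt1a6a, Ugt1a6b, Ugt2a3, Ugt2b1 and Ugt2b38. Ugt1a genes, which include the bilirubin enzyme Ugt1a1, start at separate promoters and end on the same last exons on chromosome 1. Many 3′ tags therefore cannot tell them apart. The listed end is 88220002, but 88218998 for Ugt1a6b. The last 300 bases of Ugt1a1 and Ugt1a6a are identical over all 300, and Ugt1a6b shares an exact run of 294 with each. The joint feature had 965 and 2018 tags (-0.32, -0.43 to -0.21) and Ugt1a6b 520 and 984 (-0.18, -0.33 to -0.02). Joint rows held 67.2% of the Ugt1a tags in wild-type liver and 64.9% in knockout liver.

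Hnf4a, a regulator of liver genes, had 374 and 827 tags in knockout and wild-type liver (-0.40, -0.58 to -0.22). Whether it took part in the Ugt1a values was not tested.

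Of the Ugt2 members, Ugt2b5, the most abundant, had 1293 and 2128 tags (0.02, -0.08 to 0.12). Ugt2b1 had 334 and 702 (-0.33, -0.52 to -0.14) and Ugt2a3 250 and 556 (-0.41, -0.63 to -0.19). Ugt2b38 had 8 and 30 tags (-1.16, -2.50 to -0.01), while its joint feature with Ugt2b5 had 16 and 17. Ugt2b38 was not past the size rule under either other scaling. Its promoter, chr5:87424154-87424453 (minus strand), is the last of those past that rule in liver with an entry and held none of the 3 motifs.
Ugt2b38: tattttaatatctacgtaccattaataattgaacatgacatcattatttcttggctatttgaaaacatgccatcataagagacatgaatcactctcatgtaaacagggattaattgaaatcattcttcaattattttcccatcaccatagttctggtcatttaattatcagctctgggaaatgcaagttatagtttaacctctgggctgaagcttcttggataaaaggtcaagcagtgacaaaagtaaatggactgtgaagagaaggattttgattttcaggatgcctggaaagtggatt
Of 8 measured genes of UDP-glucuronate supply, 3 had an interval above 0 and none below, with Ugdh, which makes UDP-glucuronic acid, at 0.42 (0.16 to 0.68).

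Of the listed genes around the families, conjugate exporters in liver numbered 2 above and 3 below of 11 measured, with Abcg2, a canalicular exporter of sulfate conjugates, at 220 and 149 tags (1.30, 1.00 to 1.61). Enzymes that cleave conjugates, epoxides or esters numbered 4 above and none below of 9. Those above were the epoxide hydrolases Ephx1 (0.65) and Ephx2 (0.49) and the carboxylesterases Ces1d (0.26) and Ces1g (0.39). The intervals of Gusb, Arsa, Arsb, Arsg and Naglu, which act on glucuronides, sulfates or sugars, held 0. Other conjugating enzymes numbered 4 above and 2 below of 15. Targets of the drug sensors CAR and PXR outside the families numbered 4 above and 7 below of 15, with Cyp3a11 at 0.26 and Alas1, the limiting enzyme of heme synthesis, at -1.54. Cyp2b9 and Cyp2b13, among those below, are also on the list of female-biased genes. The sensors and hormone regulators numbered 3 above and 4 below of 19, with Nr1i3, which encodes CAR, at -0.34, and Nr0b2 at 1.05. In the same liver libraries 13 of 20 hepatocyte markers had an interval above 0 and 2 below, and 0 and 1 of 13 macrophage and microglia markers. All 5 red blood cell markers had one above 0, with summed levels of 996 and 531 CPM, and 3 of 5 did in each brain region. The part of blood in these values was not tested.

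In cerebellum 10 members had a mean of at least 10 CPM. None was past the size rule as higher, beside 0.139% of all 8637 features, and Mgst1 was past it as lower, beside 0.324%. Intervals lay above 0 for none and below 0 for Gstm1, Mgst1 and Mgst3, beside 6.98% and 8.22%. Their numbers were 1 and 3 with library totals. The median log2 ratio of the 10 was -0.07. Mgst1 had 42 tags in knockout and 100 in wild-type cerebellum (-1.21, -1.76 to -0.67), and Mgst3 210 and 267 (-0.30, -0.57 to -0.04). The interval of Sult4a1 held 0 there (-0.03, -0.28 to 0.22). The theta class sum was higher in knockout cerebellum, 89 and 63 tags (0.54, 0.06 to 1.03), and lower in knockout hippocampus, 31 and 48 tags (-0.74, -1.44 to -0.06).

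In hippocampus 14 members were measured. None was past the size rule as higher, beside 0.473% of all 8672 features, and Gsta3 and Mgst1 were past it as lower, beside 1.01%. Intervals lay above 0 for 3 members and below 0 for 5, beside 12.4% and 10.6%, and the split was 2 and 6 with either other scaling. The median of the 14 was -0.14. Gsta3 had 15 tags in knockout and 66 in wild type (-2.25, -3.17 to -1.43), and Mgst1 44 and 124 (-1.61, -2.14 to -1.10). The other intervals below 0 were those of Gstm1, Gstz1 (57 and 76 tags, -0.53) and Sult4a1 (284 and 364, -0.47, -0.70 to -0.24).

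Mgst3 was higher in knockout hippocampus, with 169 and 88 tags (0.83, 0.45 to 1.22). As Mgst1 was lower and Mgst3 higher in the same library, Mgst3 held 79.3% of the Mgst tags of knockout hippocampus (73.3% to 84.6%) and 41.5% of those of the wild type (34.8% to 48.5%). The summed Mgst ratio there was -0.11 (-0.39 to 0.18).

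Ugt transcripts were scarce in brain, and fewer in the knockout libraries. The Ugt sum in cerebellum was 32 knockout and 60 wild-type tags (-0.86, -1.53 to -0.22) and 23 and 121 in hippocampus (-2.51, -3.22 to -1.86). Ugt2b5 had 10 and 26 tags in cerebellum (-1.33) and 2 and 30 in hippocampus (-4.02, -7.13 to -2.04), and the joint Ugt1a feature 9 and 47 in hippocampus (-2.50, -3.71 to -1.45). Neither feature reached a mean of 10 CPM in brain, but with either other scaling the joint Ugt1a feature did so in hippocampus and was past the size rule as lower. When the liver libraries were left out of the test of genotype, edgeR called 4 of 20 members, all lower in knockout: Gsta3, Mgst1, Ugt2b5 and the joint Ugt1a feature. Over all 12228 features that fit called 11 higher and 77 lower. These calls measure agreement between the brain regions, which may come from the same pools, and not between animals.

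**Figure D4:**
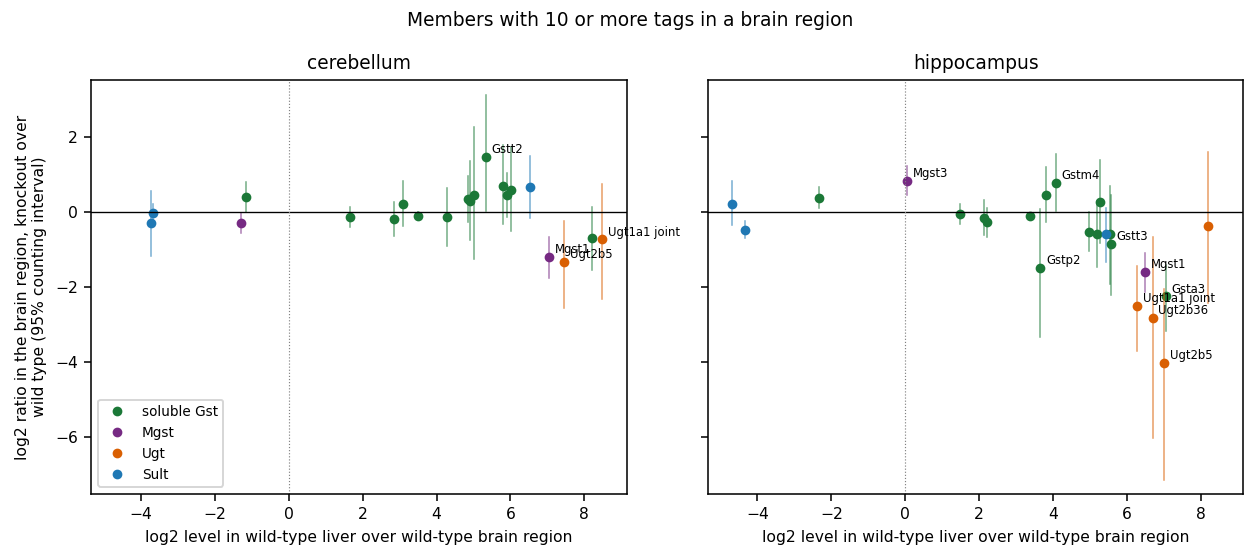
Log2 ratio of knockout over wild type in cerebellum and hippocampus (y axis, 95% counting intervals) against the log2 level in wild-type liver over the same wild-type brain region (x axis), for members with at least 10 tags in that region; colours give the family and labels mark ratios of at least 0.7 in size. In hippocampus the members far to the right, such as Mgst1, Gsta3 and Ugt2b5, lie at -1.61, -2.25 and -4.02, while Mgst3, at similar levels in liver and hippocampus, lies at 0.83.

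Mgst1, Gsta3, Ugt2b5 and the joint Ugt1a feature are all far more abundant in liver than in brain, and hepatocyte transcripts were lower in knockout brain too. Sult4a1, lower in knockout hippocampus, was more abundant in brain than in liver. Mgst3, lower in knockout cerebellum, was at 65.2 (knockout) and 80.5 (wild type) CPM there. Its levels were 56.0 and 31.5 CPM in hippocampus and 31.2 and 32.8 CPM in liver. Of 18 measured hepatocyte markers in cerebellum 14 had an interval below 0 and 1 above, with summed levels of 3037 CPM in knockout and 4397 CPM in wild type, of which Ttr alone gave 2463 and 3563 CPM. In hippocampus 18 of 19 lay below 0 and none above, with 569 and 2089 CPM and a median log2 ratio of -2.10. Of the 20 markers at most 1 was at 0 in any brain library. Markers of choroid plexus, which share Ttr with that list, had 7 of 10 below 0 in cerebellum (2844 and 4017 CPM) and 2 of 6 in hippocampus (233 and 491 CPM). In hippocampus these were Ttr, at 140 and 385 CPM, and F5, with 1 and 8 tags there but 276 and 466 in liver. The intervals of Enpp2, Folr1, Kl and Sostdc1 held 0 in hippocampus. The part of hepatocyte and choroid plexus transcripts in the values of Mgst1, Gsta3 and the Ugt members was not tested.

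Members whose liver level was 20 times that of the region or more, and which had at least 10 tags there, were set beside all such features. In hippocampus 11 of 12 were lower in knockout, with a median of -0.72, beside 415 of 476 features and a median of -0.91. In cerebellum 5 of 13 were lower, with a median of 0.34, beside 287 of 420 and a median of -0.26. Gstt2, for example, had 16 and 6 tags in cerebellum (1.46, 0.03 to 3.10), and Sult1a1 35 and 23 (0.65, -0.15 to 1.48).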

How the data were processed

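Values are raw sense counts of tags per RefSeq record, deposited without normalization per the file headers. CASAVA 1.8.2 and the build mm9 are named in the submitters' processing notes, and no aligner is named in the sources used here. Joint rows list up to 3 records that a tag matched equally well.

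The combined table was used, since the single-tissue tables differed from it in 0 of 170078 values compared. Counts were summed per symbol. Genomic rows (22.5% to 29.6% of tags) and tags without a hit (7.21% to 8.83%) name no gene and stayed out. Tests used edgeR 4.0.16 (quasi-likelihood, TMM, filterByExpr, Benjamini-Hochberg at 0.05) with tissue as a block for genotype and genotype as a term for tissues. Tissue was the block because animal numbers recur across tissues in the titles, though the labels do not say that the animals are the same. Genotype is replicated only over tissues, which may be repeated measures of 1 pool per genotype and not independent replicates. Its p-values measure agreement between tissues and say nothing of the spread between animals. Any difference between the pools would count as genotype. The p-values between tissues rest on 1 pooled library of each genotype per tissue and say nothing of that spread either. DESeq2 1.42.0, other scalings, filters and left-out libraries were alternatives, and giving joint rows with a predicted gene to the named gene was added after seeing the data. Ratios within a tissue carry exact 95% intervals, and a count of 0 was set to 3. The fits and intervals were tested on simulated data. The members and gene lists were chosen with earlier results of these data known. Named are members with at least 10 CPM in any library and list genes a result turns on. 1 listed gene and the promoter motif tied to it are not reported here. No protein sequence was used here.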

Additional observations from a re-analysis of the deposited data

Results flagged for a closer look

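Knockout and wild type differed in opposite directions in 2 tissues for 6 members, with counting intervals on opposite sides of 0. With 1 library a group these differences were not tested. Mgst1 was higher in knockout liver and lower in both brain regions, so its log2 ratio in liver exceeded that in cerebellum by 1.72 and that in hippocampus by 2.12. Gsta3 exceeded its hippocampus ratio by 2.57 in liver, Ugt2b36 by 3.22, on 2 and 13 hippocampal tags, and Gstz1 by 0.70. Gstm1 was 0.69 above its cerebellum ratio and 0.70 above its hippocampus ratio. For Mgst3 the hippocampus ratio exceeded that in cerebellum by 1.13. In both brain regions the hepatocyte markers were lower in the knockout too, and their part in these values was not tested.

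Rows left out by the rule also held a signal. In liver the row shared by Gsta1 and Gm3776 had a log2 ratio of 2.36, and the rows shared by Gstp1, Gstp2 and Gm3934 had a ratio of 0.38.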

How the results depend on the processing

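Each difference within a tissue rests on 1 pool per genotype, so animal spread is unseen. Under the alternatives 48 of 58 counts of called members stayed within 1.5 times. For genotype across tissues, 0 members were called, but 5 with no filter beyond 1 tag and 0 to 4 with a tissue left out. For cerebellum against hippocampus, 10 became 2 with DESeq2 and 3 to 12 with a library left out. The size rule with a mean of at least 1 CPM took 3 members in cerebellum and 6 in hippocampus, in place of 1 and 2. A 1.5-fold limit took 4 in hippocampus and 10 in liver, in place of 2 and 6. Among single members and family sums, the Ugt sum in liver reversed, to 0.0405 with DESeq2's size factors. Without the replicate block 0 members were called for genotype. As each group is 1 library, no paired analysis within a tissue was possible. Liver against brain called 35 to 48 members in the alternatives, beside 37.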
